A study of Mus musculus with 24 samples.

Results

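The genes that flank Gdf15 on mouse chromosome 8 were examined in subcutaneous white adipose tissue (sWAT). They are 59 of the 19175 genes of the deposited count table. Members are the genes of a 4.2383 Mb stretch around Gdf15 (GRCm39, chr8:69246581-73484833) that were not assigned to another gene set, so that 65 of the 124 table genes in the stretch are not members. Gdf15 itself, at chr8:71082038-71091537, is not one of them. The members were chosen by position, and the bounds of the stretch were selected on measured differences between Gdf15-KO and WT mice in these same samples. Levels and differences between the genotypes are therefore given as a description, without a test of the members.

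RNA-Seq was performed on sWAT of 24 mice aged 20 weeks, fed ad libitum and killed at the time the lights went off. Females and males were each divided into WT and Gdf15-KO mice, with 6 mice in each of the 4 groups. The knockout is a whole-body deletion on a mixed C57BL/6/129/SvJ background, and WT mice were littermates from crosses of heterozygous parents. The knockout line came from another laboratory and was bred in-house, and the strain of origin of the chromosome 8 copies was not analysed here.

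GDF15 is a secreted stress-induced cytokine of the TGF-beta superfamily whose hindbrain receptor is GFRAL. Genes that lie close to a targeted gene are inherited together with it, because meiotic recombination rarely separates near neighbours. In a knockout line made in cells of 1 strain and crossed to another, the region around the target can keep the sequence of the first strain. The flanking genes have no common function and were grouped here into membrane traffic and transport, signalling, RNA processing, transcription, enzymes and matrix, and little studied genes.

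The libraries held between 22521358 and 24500575 expected counts. Gdf15 summed to 73 counts over the 6 female WT mice and 3 over the female Gdf15-KO mice, and to 135 and 4 in the males. All 10 adipocyte markers were measured, with a summed level between 9481 and 23458 CPM (read counts scaled to a common library size, with TMM normalization between libraries). Whole-depot samples also held other cells: the B cell markers summed to between 256 and 1369.9 CPM, and the mammary and epithelial markers to between 960.4 and 2114 CPM in females and 7.03 and 21.4 CPM in males. In bulk tissue, fewer cells of a type and less RNA per cell cannot be told apart. None of the 8 marker lists had a gene called between Gdf15-KO and WT mice by edgeR in either sex.

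Among the flanking genes, those called between Gdf15-KO and WT mice were mainly lower in Gdf15-KO mice, in both sexes. A gene was called when the Benjamini-Hochberg adjusted p of edgeR's quasi-likelihood test over 14982 tested genes was under 0.05. All 59 members were tested. In females 16 members were called, 14 lower and 2 higher in Gdf15-KO mice, against 0.194% of all tested genes called (0.174% lower and 0.02% higher). In males 17 were called, 15 lower and 2 higher, against 0.2% of all genes (0.174% lower and 0.0267% higher). The rule used these contrasts, so nothing is read from the shares.

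In all, 15 members were called in both sexes, against 0.174% of all genes called in both. Slc18a1, Lpar2, Borcs8, Klhl26, Pgpep1, Lsm4, Ccdc124, Tmem221, Colgalt1, B3gnt3, Fam32a, Slc35e1 and Smim7 were lower (0.154% of all genes), and Armc6 and Ocel1 were higher (0.02%). The median log2 difference of the 59 members (Gdf15-KO minus WT) was -0.19 in females and -0.16 in males, where the medians of all tested genes were -0.0050 and 0.0012. A total of 51 members had values below 0 in females and 45 in males, most of them not called. Fitted on that sex alone, edgeR did not call Lpar2, Pgpep1, Ocel1 and Colgalt1 in females (adjusted p = 0.0851, 0.0636, 0.111 and 0.0629) or Klhl26, Lsm4 and Ccdc124 in males (adjusted p = 0.111, 0.0572 and 0.0740). Of the 52 other tested genes inside the stretch, edgeR called 11 in females and 11 in males, against 0.194% and 0.2% of all tested genes. Their median log2 differences were -0.32 and -0.28, so the lower levels were not particular to the members. Outside the stretch, 0 of 244 tested genes before it and 0 of 412 after it on chromosome 8 were called in either sex by edgeR. The bounds of the stretch were set on these same differences, so the lack of calls beyond them is not a separate result.

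**Figure D1:**
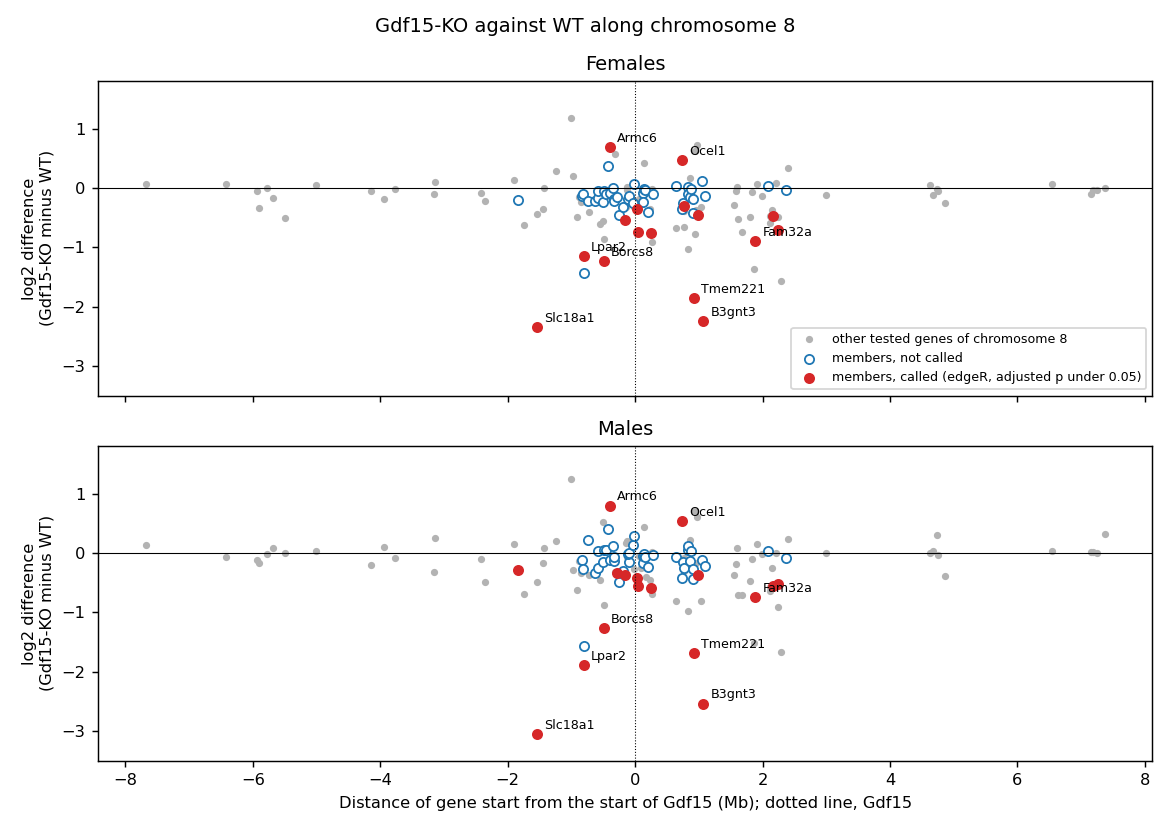
Log2 difference between Gdf15-KO and WT mice (edgeR, 6 mice a group) against the distance of each gene start from the start of Gdf15 in Mb, in females (top) and males (bottom). Filled red points are members called by edgeR, open circles members not called and grey points the other tested genes of chromosome 8 within 8 Mb. The called members lie between 1.84 Mb before and 2.24 Mb after Gdf15, among members near 0 and uncalled members farther from 0.

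At the edges of the stretch, the 2 tested genes just outside it before Gdf15 were Sh2d4a, at a log2 difference of -0.22 ± 0.14 (SE) in females and -0.48 ± 0.14 in males, and Csgalnact1, at 0.13 ± 0.11 and 0.16 ± 0.11. The members just inside were Ints10, at -0.20 ± 0.06 and -0.29 ± 0.06, and Slc18a1, at -2.34 ± 0.36 and -3.05 ± 0.37. After Gdf15 the last members were Smim7, at -0.71 ± 0.062 and -0.52 ± 0.062, and Sin3b, at -0.03 ± 0.046 and -0.081 ± 0.046, and the tested gene next to it outside the stretch was F2rl3, at 0.34 ± 0.21 and 0.24 ± 0.21.

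Among the 13 members with roles in membrane traffic and transport, 3 were called in both sexes, all lower. Slc18a1 encodes a vesicular monoamine transporter and lies at chr8:69490135-69541887 on the minus strand. The lowest, median and highest Slc18a1 levels were 1.05, 1.47 and 2.1 CPM in female WT mice and 0.161, 0.211 and 0.670 CPM in female Gdf15-KO mice. In males they were 1.14, 1.89 and 3.26 CPM in WT and 0.0427, 0.271 and 0.335 CPM in Gdf15-KO mice. The groups did not overlap in either sex, and the gene was detected in every mouse at few reads, with 44 and 34 summed counts in the female and male Gdf15-KO groups against 211 and 279 in WT. The log2 difference was -2.34 ± 0.36 in females and -3.05 ± 0.37 in males.

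Borcs8 encodes a subunit of BORC, the complex that links lysosomes to the kinesin machinery and so sets their position in the cell. It lies at chr8:70592051-70602731 on the plus strand. Borcs8 stood at 33.2, 37.1 and 37.7 CPM (lowest, median and highest of 6 mice here and below) in female WT and 12.2, 14.2 and 24.5 CPM in female Gdf15-KO mice. Male WT mice had 33.6, 36.6 and 41.4 CPM and male Gdf15-KO mice 14.1, 15.6 and 16.1 CPM. Knockout mice of both sexes lay below every WT mouse, with 1 female knockout mouse well above the other 5. The log2 difference was -1.24 ± 0.12 in females and -1.26 ± 0.12 in males. Exons of the adjacent genes Mef2b and Rfxank cover 15.2% of the exon bases of Borcs8, and whether counting used strand is not given in the sources used here.

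Slc35e1, of the solute carrier family that includes nucleotide sugar transporters, had 69.2, 82.7 and 89.2 CPM in female WT and 55.6, 59.7 and 61.9 CPM in female Gdf15-KO mice. The male levels were 76.5, 84.9 and 93.2 CPM and 52.4, 57.5 and 61.9 CPM. No Gdf15-KO mouse reached the lowest WT mouse of its sex, at log2 differences of -0.47 ± 0.06 and -0.56 ± 0.06. The other 10 members of the group, among them Cope of the COPI coat, Rab3a of regulated exocytosis and the endothelial diaphragm gene Plvap, were called in neither sex. Plvap, for example, was 83, 97.3 and 112 CPM in female WT and 84.9, 95.9 and 109.8 CPM in female Gdf15-KO mice.

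Of the 12 signalling, cytoskeleton and ubiquitin members, Lpar2 and Klhl26 were called in both sexes. Lpar2, a G protein-coupled receptor for lysophosphatidic acid (chr8:70275079-70283752, plus strand), measured 6.4, 8.03 and 9.95 CPM in female WT mice and 2.39, 3.22 and 6.26 CPM in female Gdf15-KO mice. In males it measured 3.91, 5.94 and 9.98 CPM and 0.884, 1.88 and 2.55 CPM. The genotypes did not overlap, though the highest female Gdf15-KO mouse lay just under the lowest female WT mouse. Its log2 difference was -1.15 ± 0.24 in females and -1.89 ± 0.25 in males. The female call held in 6 of the 24 fits that left out 1 mouse, with adjusted p up to 0.178 (edgeR), and the male call held in all 24.

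Klhl26 belongs to the Kelch-like proteins, many of which present substrates to cullin-3 ubiquitin ligases. Levels of Klhl26 were 31, 33.3 and 35.6 CPM in female WT and 21.7, 22.9 and 24.3 CPM in female Gdf15-KO mice. The male groups had 23.5, 26.9 and 28.4 CPM and 18.5, 20.3 and 24.5 CPM. The female groups were apart, while the highest male Gdf15-KO mouse passed the lowest male WT mouse. Log2 differences were -0.54 ± 0.06 and -0.36 ± 0.061. Babam1, a scaffold subunit of the BRCC36 deubiquitinase complexes, was called in females alone, at -0.30 ± 0.065 in females and -0.25 ± 0.064 in males, and a test of the difference between the sexes did not call it (edgeR).

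Of the 8 RNA processing members, Lsm4 and Fam32a were called in both sexes. Lsm4 encodes a subunit of the LSM ring, which binds U6 snRNA in the nucleus and decapping substrates in the cytoplasm. It is the second member after Gdf15, and stood at 18.8, 21.7 and 26.3 CPM in female WT and 9.86, 14.3 and 15.5 CPM in female Gdf15-KO mice. For males the values were 23.9, 26 and 30.6 CPM and 14.6, 17.3 and 21.8 CPM. All knockout mice were below all WT mice of their sex. The log2 difference was -0.74 ± 0.11 in females and -0.56 ± 0.11 in males, where 16 of the 24 fits without 1 mouse kept the male call, with adjusted p up to 0.132 (edgeR).

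Fam32a, known in human cells as a factor of the catalytic spliceosome, lies 1.89 Mb after Gdf15 at chr8:72973564-72978262. Its levels were 68.7, 76.6 and 82.8 CPM in female WT and 36.6, 41.1 and 43.8 CPM in female Gdf15-KO mice. Male WT mice showed 65.1, 73.7 and 79.1 CPM and male Gdf15-KO mice 42, 43.9 and 46.3 CPM. The distance between the genotypes was wider than the range within any group, at log2 differences of -0.90 ± 0.056 and -0.75 ± 0.055. Upf1, the helicase of nonsense-mediated decay, was called in males alone, at -0.16 ± 0.058 in females and -0.34 ± 0.058 in males.

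Of the 10 enzyme, mitochondrial and matrix members, B3gnt3, Pgpep1 and Colgalt1 were called in both sexes. B3gnt3 adds N-acetylglucosamine to the core of O-linked glycans (chr8:72142179-72156241, minus strand). B3gnt3 measured 22.2, 23.1 and 27.1 CPM in female WT mice and 3.65, 5.13 and 6.27 CPM in female Gdf15-KO mice. The male levels were 21.5, 23.9 and 29.2 CPM and 3.72, 4.1 and 5.12 CPM. Every knockout mouse lay far below every WT mouse, and the knockout level was 0.211 of the WT level in females and 0.172 in males, or log2 differences of -2.25 ± 0.12 and -2.54 ± 0.12. Exons of Jak3 and Insl3 cover 20.5% of its exon bases, and Jak3 itself differed by 0.11 ± 0.10 and -0.11 ± 0.10.

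Pgpep1, which removes N-terminal pyroglutamate from peptides, is the member nearest after Gdf15, 27.4 kb from start to start. Female WT mice had 30.1, 32.5 and 36.4 CPM of Pgpep1 and female Gdf15-KO mice 23.1, 25.2 and 28.7 CPM. Among males the levels were 26.5, 30.0 and 31.6 CPM and 20.2, 22.6 and 24.1 CPM. The groups were separate in both sexes at log2 differences of -0.36 ± 0.063 and -0.41 ± 0.063. Colgalt1, a galactosyltransferase for hydroxylysine of collagens, had 116, 125 and 166 CPM in female WT and 88.4, 95.7 and 97.2 CPM in female Gdf15-KO mice. Its male levels were 121, 127 and 135 CPM and 89, 96.4 and 115 CPM. Again no knockout mouse reached a WT mouse of its sex. The log2 differences of Colgalt1 were -0.46 ± 0.072 and -0.38 ± 0.072, the male call held in 18 of 24 fits without 1 mouse (adjusted p up to 0.0899, edgeR), and exons of Unc13a cover 39.8% of its exon bases.

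Of the 6 little studied members, 5 were called in both sexes, and both genes that were higher in knockout mice are among them. Armc6, an armadillo-repeat protein (chr8:70672822-70687520, minus strand), stood at 6.98, 7.27 and 9.29 CPM in female WT and 10.7, 12.2 and 15.8 CPM in female Gdf15-KO mice. Male WT mice had 7.16, 8.25 and 9.55 CPM and male Gdf15-KO mice 12.9, 14.1 and 17.1 CPM. All knockout mice were above all WT mice of their sex, at 0.68 ± 0.10 and 0.79 ± 0.10 on the log2 scale. Ocel1, a protein with a domain shared with occludin and ELL, had 7.72, 8.47 and 9.5 CPM in female WT and 10.5, 11.8 and 13.6 CPM in female Gdf15-KO mice. The male Ocel1 levels were 9.45, 11.3 and 13.1 CPM and 13.8, 17.1 and 18.2 CPM. The groups were apart in both sexes, with log2 differences of 0.47 ± 0.088 and 0.54 ± 0.087. The female call of Ocel1 was lost without female WT replicate 6 (adjusted p = 0.0502, edgeR) or female Gdf15-KO replicate 14 (adjusted p = 0.0543, edgeR). Exons of Nr2f6 and Ushbp1 cover 49.5% of the exon bases of Ocel1.

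The 3 lower members of this group were Tmem221, Ccdc124 and Smim7. Tmem221, a membrane protein gene at chr8:72006882-72011655, was at 3.13, 3.64 and 4.61 CPM in female WT and 0.819, 0.987 and 1.35 CPM in female Gdf15-KO mice. In males it was at 1.86, 2.88 and 3.65 CPM and 0.695, 0.886 and 1.01 CPM, and its log2 differences were -1.86 ± 0.16 and -1.69 ± 0.17. Ccdc124, a ribosome-associated coiled-coil protein in human cells, showed 23.7, 28.8 and 35.1 CPM in female WT and 13.7, 16.8 and 21.4 CPM in female Gdf15-KO mice. These 2 genes did not overlap between the genotypes in females or males. Male Ccdc124 levels were 27.9, 36.6 and 45.8 CPM and 20.5, 24 and 27.5 CPM. Its log2 differences were -0.76 ± 0.13 and -0.59 ± 0.12, and the male call held in 9 of 24 fits without 1 mouse, with adjusted p up to 0.171 (edgeR). Smim7, a small membrane protein and the last called member, had 74.9, 77.2 and 81.2 CPM in female WT and 43, 48.5 and 50.4 CPM in female Gdf15-KO mice. Knockout mice were lower without overlap here as well. The male Smim7 values were 71.2, 75.3 and 84 CPM and 48, 50.6 and 61.6 CPM, and the log2 differences -0.71 ± 0.062 and -0.52 ± 0.062.

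**Figure D2:**
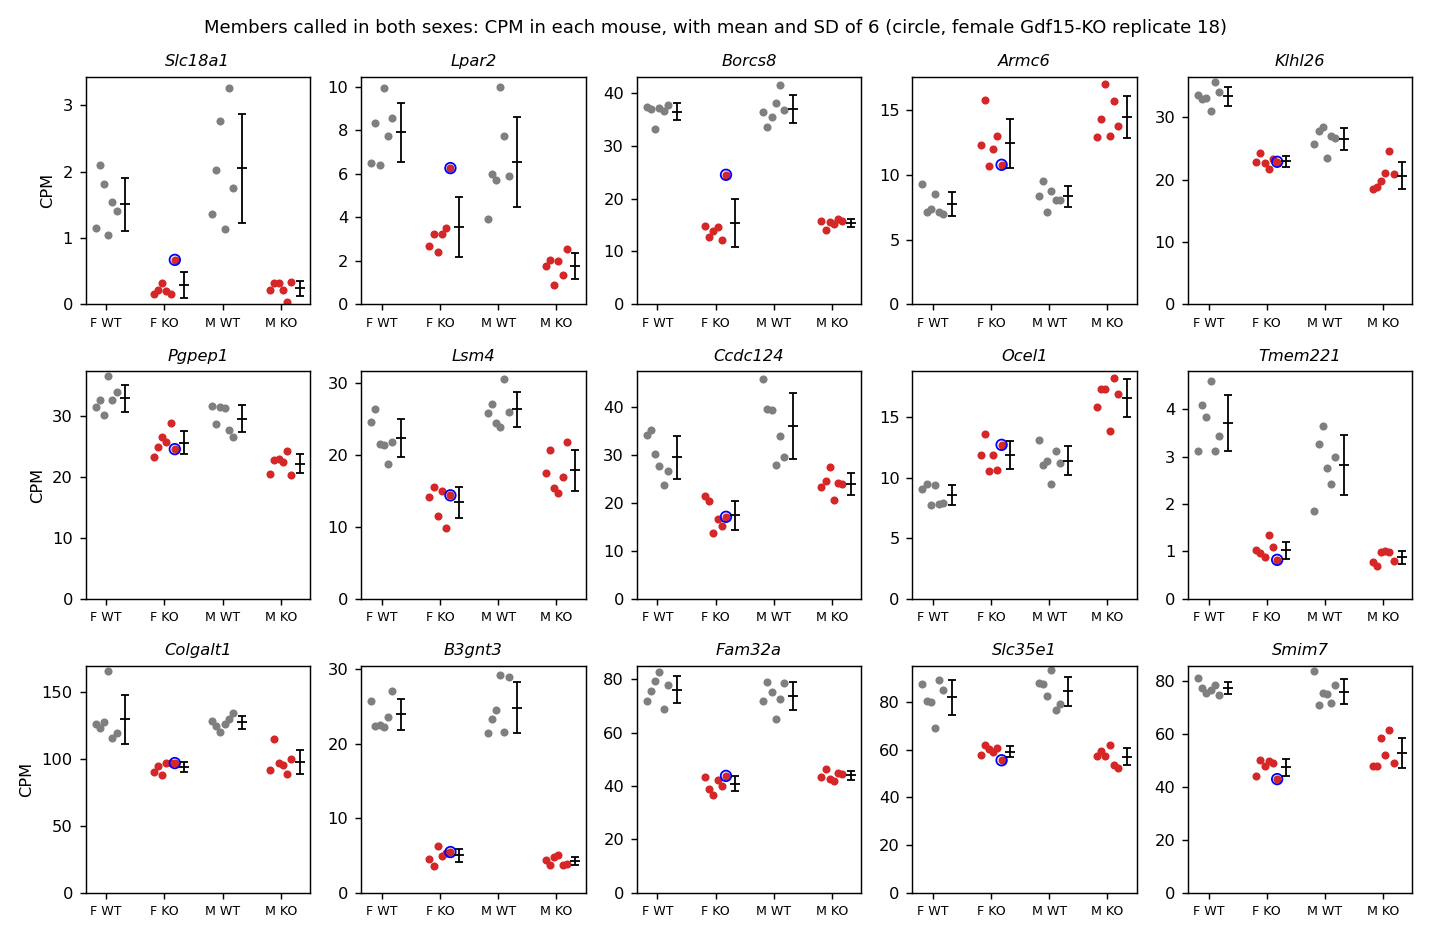
CPM of the 15 members called in both sexes in each of the 24 mice, in chromosomal order, with the mean and SD of 6 mice beside each group (grey, WT, and red, Gdf15-KO). Apart from Klhl26 in males, the Gdf15-KO and WT points of a sex do not overlap in any panel, and the circled female mouse, replicate 18, lies above the other knockout mice for Slc18a1, Lpar2 and Borcs8.

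None of the 10 transcription and chromatin members was called in either sex by edgeR, at median log2 differences of -0.19 in females and -0.15 in males. Crtc1, a coactivator of CREB, was nonetheless lower without overlap in both sexes, in males by a narrow margin. Its levels were 35.2, 38.3 and 40.8 CPM in female WT and 28.7, 29.8 and 34.2 CPM in female Gdf15-KO mice. In males they were 26.8, 28.3 and 39.1 CPM and 22.1, 23.9 and 26.8 CPM, at log2 differences of -0.32 ± 0.077 and -0.31 ± 0.078. Pbx4, a homeobox gene near the detection limit with 96 and 37 summed counts in female WT and Gdf15-KO mice and 82 and 28 in males, had the largest log2 differences among members not called, -1.44 ± 0.37 and -1.58 ± 0.39. Groups did not overlap in 16 members lower and 2 higher in Gdf15-KO females, against 0.601% and 0.434% of all tested genes, and in 18 lower and 3 higher in Gdf15-KO males, against 0.347% and 0.133%. Counting both sexes gave 13 members lower and 2 higher in Gdf15-KO mice, against 0.147% and 0.02% of all tested genes.

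The members nearest to Gdf15 on the other side were Ssbp4, a single-stranded DNA binding protein gene, and Isyna1, the enzyme that makes inositol 3-phosphate. Ssbp4 was at 44.9, 47 and 53.4 CPM in female WT and 45.5, 49.7 and 57.5 CPM in female Gdf15-KO mice, and at 51, 54.2 and 57.7 CPM and 58.7, 66.4 and 74.7 CPM in males. Its groups overlapped in females and not in males, and neither comparison was called by edgeR with TMM over all groups. The male difference was called by DESeq2 on all groups (adjusted p = 0.00494) and on males alone (adjusted p = 0.0286), and by edgeR with upper quartile factors (adjusted p = 0.0453). Isyna1 was at 43.6, 55.3 and 63.4 CPM in female WT and 30.3, 44.6 and 56.8 CPM in female Gdf15-KO mice, and at 28.9, 32.9 and 40.1 CPM and 26.9, 37.3 and 46.8 CPM in males. Isyna1 groups overlapped in both sexes, with log2 differences of -0.26 ± 0.15 and 0.14 ± 0.15. The outermost member before Gdf15 was Ints10, a subunit of the Integrator complex that cleaves nascent snRNA. Ints10 levels were 23.2, 25.9 and 27.3 CPM in female WT and 20.0, 21.8 and 25.3 CPM in female Gdf15-KO mice, and 27.3, 27.8 and 29.5 CPM and 20.9, 23 and 24.7 CPM in males. The outermost member after Gdf15 was Sin3b, a scaffold of histone deacetylase complexes. Sin3b levels were 67.9, 73.5 and 79.5 CPM in female WT and 68, 71 and 79.3 CPM in female Gdf15-KO mice, and 77.9, 78.9 and 82.8 CPM and 71.9, 74.8 and 80.3 CPM in males. Ints10 was called in males alone, a call lost in 9 of the 24 fits without 1 mouse, with adjusted p up to 0.126 (edgeR), and Sin3b was called in neither sex.

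The called members were interspersed with members that were not called. Of the 15, 5 lay before Gdf15 and 10 after it, 6 were on the plus strand, and 11 of the 15 had no tested neighbour on either side that was called in both sexes. These are counts of calls, and some neighbours not called in both sexes were also away from 0. Pbx4, next to Lpar2, stood at -1.44 in females and -1.58 in males, and Niban3, next to Colgalt1, at 0.72 and 0.60. Armc6 and Borcs8 each share a start region with another member, which in both pairs was not called. Mef2b and Borcs8 have the same annotated start and strand, and Mef2b, at 74, 76, 67 and 72 summed counts in WT and Gdf15-KO females and WT and Gdf15-KO males, differed by -0.058 ± 0.52 and 0.054 ± 0.53. With so few counts, a difference in Mef2b could be missed. Armc6 and Sugp2 start 693 bases apart, in opposite directions and with overlapping first stretches, and Sugp2 differed by -0.088 ± 0.065 and -0.12 ± 0.065, of the other sign than Armc6. Slc25a42, the mitochondrial coenzyme A carrier next to Armc6, stood at 0.38 ± 0.15 and 0.40 ± 0.15 and was not called. The median CPM over all mice was 25.9 for the 15 members and 38.9 for the other 44, and their median exon lengths were 5513 and 5256 bases.

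The 200 bases before the outermost annotated start are shown for members with large differences between the genotypes, in either direction. Only members called in both sexes whose window holds no exon of a protein-coding gene were taken. Shown are the 3 lower members with the largest differences and Ocel1, the only higher member left. The window of Armc6, which rose more, was left out by this rule. That of Tmem221 holds an exon of Gm63775, which is not protein-coding. All 4 windows are from the GRCm39 reference, 5′ to 3′ on the strand of the gene. Capitals mark a GC box (GGGCGG) or a CCAAT box (CCAAT), on either strand.
Slc18a1 (chr8:69541888-69542087, minus strand): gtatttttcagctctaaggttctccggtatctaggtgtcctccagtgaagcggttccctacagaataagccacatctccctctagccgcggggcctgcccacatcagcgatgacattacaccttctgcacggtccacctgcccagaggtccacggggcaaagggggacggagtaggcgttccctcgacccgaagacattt
B3gnt3 (chr8:72156242-72156441, minus strand): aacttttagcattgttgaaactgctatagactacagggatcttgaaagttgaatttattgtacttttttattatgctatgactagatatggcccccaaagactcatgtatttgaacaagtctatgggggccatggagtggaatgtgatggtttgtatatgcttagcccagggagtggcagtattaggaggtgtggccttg
Tmem221 (chr8:72011656-72011855, minus strand): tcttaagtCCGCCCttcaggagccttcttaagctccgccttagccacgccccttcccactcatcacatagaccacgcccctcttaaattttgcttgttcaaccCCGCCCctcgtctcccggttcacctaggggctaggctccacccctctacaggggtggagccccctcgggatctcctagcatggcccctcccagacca
Ocel1 (chr8:71823736-71823935, plus strand): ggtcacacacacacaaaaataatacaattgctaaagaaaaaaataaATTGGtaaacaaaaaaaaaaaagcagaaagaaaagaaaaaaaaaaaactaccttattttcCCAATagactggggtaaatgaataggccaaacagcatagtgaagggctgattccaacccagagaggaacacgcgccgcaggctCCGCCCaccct
The windows of Slc18a1 and B3gnt3 held neither motif, that of Tmem221 held 2 GC boxes and that of Ocel1 1 GC box and 2 CCAAT boxes. For B3gnt3 the canonical start, at 72154634, lies within the gene from its outermost start at 72156241. The window printed for B3gnt3 is therefore not next to its canonical start. A TATA box (TATAAA), searched on both strands as well, was in none of these 4 windows. GC boxes were in 30 of the 59 members' windows and in 36.3% of 14618 windows of tested genes, CCAAT boxes in 21 and 30.6%, and TATA boxes in 1 and 6.72%. These are matches of letters in the reference, and the sequence of either allele in these mice was not analysed here.

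Of all mice, female Gdf15-KO replicate 18 lay between the genotypes at several called members before Gdf15. Each mouse was placed on a scale where 0 is the mean of the WT mice and 1 the mean of the Gdf15-KO mice of its sex, with the mouse itself left out of the means. Female Gdf15-KO replicate 18 stood at 0.648 for Slc18a1, 0.337 for Lpar2, 0.524 for Borcs8 and 0.606 for Armc6, the 4 called members farthest before Gdf15. For the 11 other members called in both sexes, from Klhl26 onward, it stood between 0.872 and 1.33. Members not called in both sexes are not given on this scale. Among them was Use1, 734.8 kb after Gdf15, at log2 differences of -0.36 in females and -0.42 in males. Replicate 18 had 53.7 CPM of Use1, near the female WT mean of 53.5 CPM, where the other female Gdf15-KO mice had 35 to 42.3 CPM. The other 5 female Gdf15-KO mice lay between 0.967 and 1.34 for Slc18a1, Lpar2 and Borcs8, and the male Gdf15-KO mice between 0.807 and 1.23. The WT mice lay between -1.02 and 0.594 for these 3 genes. For Armc6 the other knockout mice also reached 0.587 in females and 0.712 in males. Over the 11 members from Klhl26 onward, the other female Gdf15-KO mice spread from 0.517 to 1.699, the male Gdf15-KO mice from 0.298 to 1.49 and the WT mice from -1.54 to 0.709, so single genes placed other mice between the genotypes as well. The lowest of these knockout values were 0.298 for Klhl26 in male replicate 17 and 0.390 for Colgalt1 in male replicate 14.

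In CPM, replicate 18 had 0.670 of Slc18a1, 6.26 of Lpar2 and 24.5 of Borcs8, where the other female Gdf15-KO mice averaged 0.214, 3.004 and 13.6. The mouse thus lay between the genotypes at these genes. Its Gdf15 level was 0 CPM. Among the genes of the stretch called in both sexes that are not members, its position was between -0.0054 and 0.645 for the 4 that lie before Armc6 (median 0.533) and between 0.546 and 1.26 for the 6 that lie beyond it (median 0.738). Its B cell markers summed to 860 CPM and its T cell markers to 562 CPM, where the other female Gdf15-KO mice had 299.8 to 852 CPM and 188 to 387 CPM, and its adipocyte markers summed to 10977 CPM against 12484 to 14679 CPM. The part of these cells in its levels was not tested. Without this mouse the female log2 differences were -2.79 for Slc18a1, -1.39 for Lpar2 and -1.42 for Borcs8, and all 15 female calls held. The male call of Ccdc124, whose fit shares its estimate of the spread with the females, did not hold without it (adjusted p = 0.0683, edgeR).

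**Figure D3:**
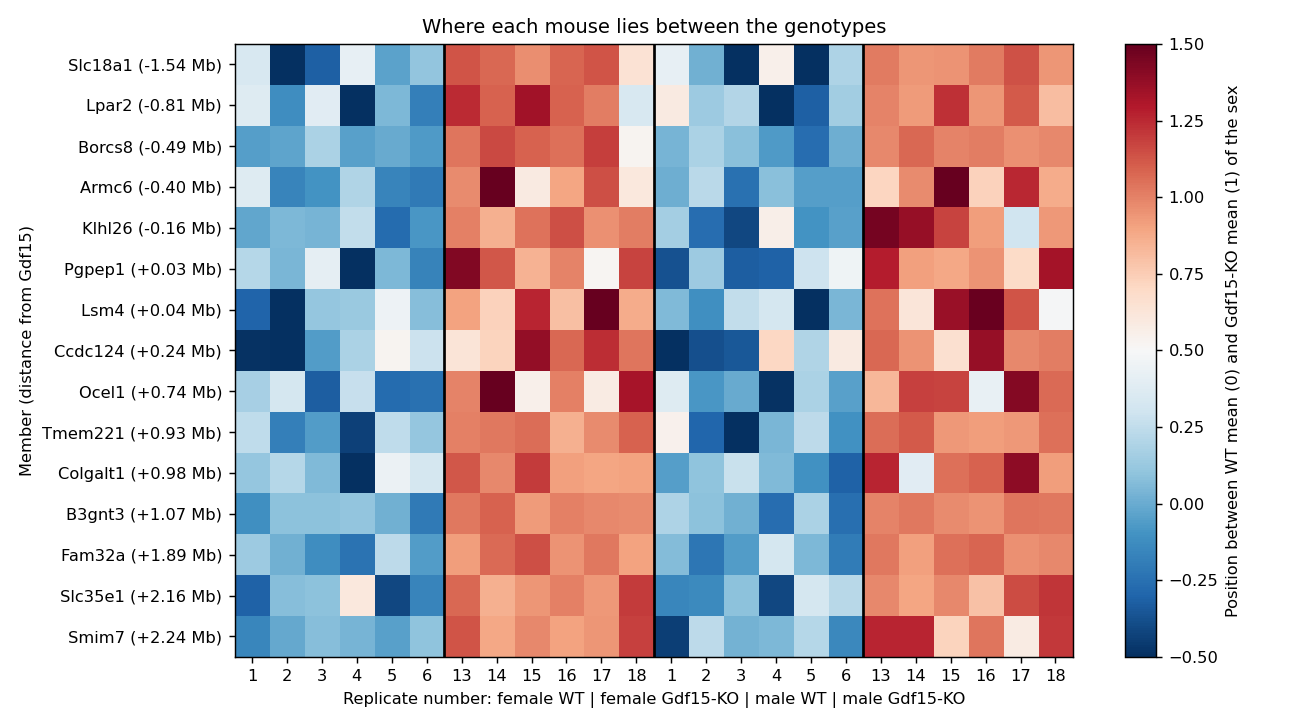
Position of each mouse (columns) between the mean of the WT mice (0, blue) and the mean of the Gdf15-KO mice (1, red) of its sex, for the 15 members called in both sexes (rows, in chromosomal order). Colours stop at -0.5 and 1.5. Female Gdf15-KO replicate 18 is pale, near 0.5, in the upper 4 rows and red in the rows below, while other Gdf15-KO mice are pale in single rows.

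The differences between the genotypes ran in parallel across the members in females and males. Over the 59 members the female and male log2 differences had a Pearson correlation of 0.961 and the same sign in 49 members. Over the 44 members not called in both sexes the correlation was 0.867, and the sign was the same in 34 of them. The 44 include Pbx4, at few counts and far from the rest at -1.44 and -1.58. The correlation without Pbx4 was not computed. The 2 contrasts share no mice, but the members' choice used both, so these values only describe them. The difference between the sexes in the Gdf15-KO effect was tested as an interaction. By edgeR it was called for 0 of the 59 members, against 0% of all tested genes, and DESeq2 and limma-voom also called 0. At an unadjusted p under 0.05 stood 6 members, Lpar2, Upf1, Fkbp8, Ssbp4, Dda1 and Smim7, against 3.48% of all tested genes.

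The smallest unadjusted p-values of the interaction were those of Ssbp4, Dda1 and Upf1. Ssbp4 had a log2 difference of 0.061 ± 0.064 in females and 0.29 ± 0.064 in males, and its interaction was -0.23 ± 0.09 (female minus male effect, edgeR, unadjusted p = 0.0169). Dda1, a subunit of DDB1 ubiquitin ligases, had -0.11 ± 0.07 and 0.13 ± 0.07, with an interaction of -0.23 ± 0.10 (unadjusted p = 0.0265, edgeR). Upf1 had an interaction of 0.19 ± 0.082 (unadjusted p = 0.0318, edgeR). The adjusted p-values of all 3 were 0.998 (edgeR), so a difference between the sexes was not shown for any member.

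**Figure D4:**
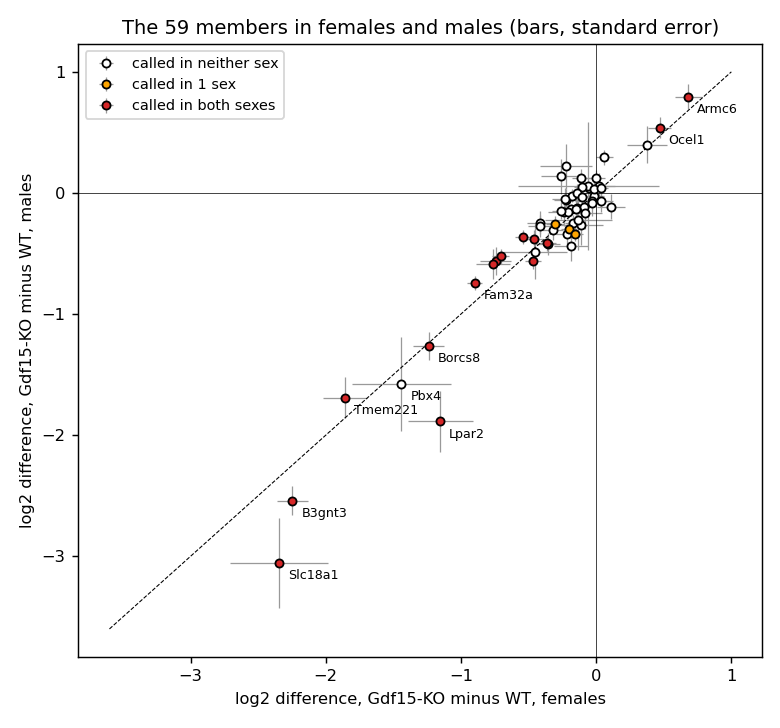
Log2 difference between Gdf15-KO and WT mice in males against that in females for the 59 members, with standard errors from edgeR and the line of equal values (dashed). Members called in both sexes are red, in 1 sex orange and in neither white, and the red points spread from -2.34 and -3.05 (Slc18a1) to 0.68 and 0.79 (Armc6) along the line.

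Genes outside the member list whose products share a complex or family with a member were examined in the same fit. The lists held 110 such partner genes, and 109 were tested. Examples are subunits of BORC, Integrator and the LSM ring that are not members, and the other LPA receptors. Kxd1 of BORC is itself a member, at -0.21 ± 0.057 and -0.16 ± 0.057, and is not among the partners. By edgeR, 0 were called in females and 0 in males, against 0.194% and 0.2% of all tested genes. With so low a share over all genes, 0 calls among 109 genes says little about the partners. An unadjusted p under 0.05 (edgeR) was seen for 12 and 4, against 10.9% and 5.47% of all tested genes. DESeq2 also called 0 in both sexes. The median log2 difference of the partners was 0.0034 in females and -0.0026 in males, where all tested genes had -0.0050 and 0.0012. The partner with the smallest p was Cdk2ap1 of the NuRD complex in females, at -0.24 ± 0.072 (adjusted p = 0.257, edgeR), and Lsm1, a subunit of the cytoplasmic LSM ring, in males, at -0.16 ± 0.065 (adjusted p = 0.825, edgeR). The 6 BORC partners had a median of -0.074 in females and -0.042 in males, the LPA receptor partners 0.087 and 0.092, and the 7 LSM ring partners -0.14 and -0.12, with none of them called (edgeR).

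Females were then compared with males over both genotypes, a contrast that is orthogonal to the one used by the rule. By edgeR 26 of the 59 members were called, 17 lower and 9 higher in females, against 44.2% of all tested genes (20.9% lower and 23.4% higher). The share of members called, 44.1%, was thus near that of all genes, with more of the calls toward lower levels in females. The median log2 difference (females minus males) was -0.043 over the members and -0.018 over all tested genes.

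Lower in females were Mpv17l2, a protein of the inner mitochondrial membrane, at -0.51 ± 0.067 (adjusted p = 1.59e-06, edgeR), and Plvap, the diaphragm protein of fenestrated and caveolar endothelium, at -0.48 ± 0.057 (adjusted p = 3.08e-07, edgeR). Plvap was at 83, 97.3 and 112 CPM and 84.9, 95.9 and 109.8 CPM in female WT and Gdf15-KO mice and at 124, 133 and 148 CPM and 122, 136 and 163 CPM in the males. All female mice were below all male mice for Plvap. Of the 10 endothelial markers 6 were also lower and 1 higher in females (edgeR), with a median of -0.24 and summed levels between 892 and 1163 CPM in females and 1026 and 1245 CPM in males, and their part in the Plvap difference was not tested. Mpv17l2 was at 20.9, 26.5 and 29.3 CPM and 19.5, 21.6 and 24.1 CPM in female WT and Gdf15-KO mice, and at 31.1, 34.8 and 38.1 CPM and 27.7, 32.7 and 42 CPM in males. Ocel1 was lower in females at -0.45 ± 0.062 (adjusted p = 3.16e-06, edgeR) in addition to its difference between the genotypes. Ssbp4 and Ddx49, a DEAD-box RNA helicase, were lower at -0.28 ± 0.045 and -0.20 ± 0.033 (adjusted p = 2.84e-05 and 4.12e-05, edgeR).

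Higher in females were Crtc1 at 0.34 ± 0.055 (adjusted p = 2.27e-05, edgeR), Klhl26 at 0.24 ± 0.043 (adjusted p = 7.46e-05), Ell, an elongation factor of RNA polymerase II, at 0.27 ± 0.054 (adjusted p = 3.58e-04), Isyna1 at 0.47 ± 0.10 (adjusted p = 7.05e-04), and Mau2, a subunit of the cohesin loader, at 0.19 ± 0.044 (adjusted p = 0.00119). The largest differences of either sign were those of Comp, a matrix protein of cartilage and tendon, at -0.97 ± 0.16, and Lpar2 at 0.64 ± 0.17. Mean Lpar2 was 7.91 CPM in female and 6.53 CPM in male WT mice, with overlapping ranges, and 3.55 and 1.76 CPM in Gdf15-KO mice. The female Gdf15-KO mean includes replicate 18 at 6.26 CPM, where the other female Gdf15-KO mice averaged 3.004 CPM. The interaction of Lpar2 had an unadjusted p of 0.0445 and an adjusted p of 0.998 (edgeR). The 11 mammary and epithelial markers were all higher in females, at a median of 8.33, and 7 of the 10 adipocyte markers and 6 of the 9 macrophage markers were lower (edgeR). The part of these cells in the members' differences was not tested.

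**Figure D5:**
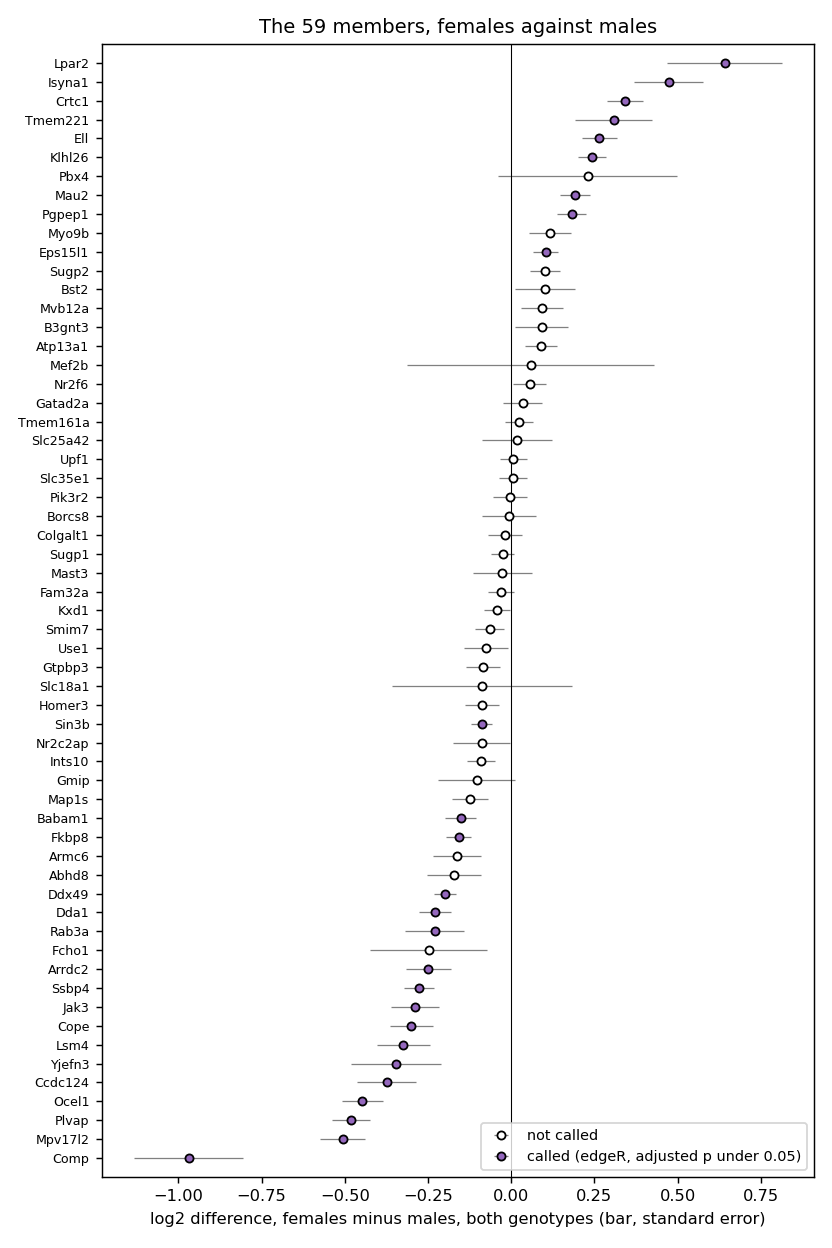
Log2 difference between females and males over both genotypes for the 59 members in order of size, with standard errors from edgeR. Filled points are the 26 members called, 17 below 0 and 9 above, from Comp at -0.97 to Lpar2 at 0.64.

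Per kilobase of exon, Bst2, Fkbp8 and Plvap had the highest mean levels among the members in female WT mice, and Mef2b, Pbx4 and Slc18a1 the lowest. Bst2, an interferon-induced membrane protein that tethers virions, stood at 33 CPM per kb in female WT and 33.6 in male WT mice. Fkbp8, a mitochondrial FK506-binding protein, stood at 29.8 and 31.5 CPM per kb, and Plvap at 25.5 and 35, so that Plvap was below the other two in female WT mice and above them in male WT mice. At the low end, the level in female and male WT mice was 0.160 and 0.146 CPM per kb for Mef2b, 0.202 and 0.181 for Pbx4 and 0.223 and 0.303 for Slc18a1. In Gdf15-KO mice the order of these 3 genes was turned around, with Slc18a1 at 0.0428 and 0.0359 CPM per kb in females and males, Pbx4 at 0.0733 and 0.0602, and Mef2b at 0.153 and 0.152.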

How the data were processed

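sWAT RNA of 24 mice was sequenced as paired reads by BGI, which trimmed and aligned them to GRCm39 with Bowtie2 2.2.5 and quantified genes with RSEM 1.2.8, per the labels and the study's methods. The authors deposited RSEM expected counts with decimals for 19175 genes, which means that reads shared by overlapping or similar genes were divided between them by estimate. The gene annotation and the strandedness of the libraries are not given in the sources used here. Reads and sequence variants were not analysed here.

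Expected counts were rounded, filtered by group with filterByExpr (minimum count 10, minimum total 15), which left 14982 genes, normalized by TMM and fitted with edgeR 4.0.16 (R 4.3.3) as 1 mean per group over all 24 mice. Contrasts were Gdf15-KO against WT in each sex, their difference, and females against males over both genotypes, with Benjamini-Hochberg adjusted p under 0.05. The model takes the mice as independent, although they include littermates and litter was not modelled. With 6 per group, p-values set a difference against the spread between these mice, estimated over all 4 groups with information shared between genes. The script was tested on simulated data. Alternatives used DESeq2 1.42.0, limma-voom (limma 3.58.1), other scalings and filters, each sex alone, and fits without 1 mouse.

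Positions came from GENCODE mouse release M39 (GRCm39), in which all 59 members were found and 18223 table genes were placed, 123 of them by another name. Distances are between starts of canonical transcripts. Sequence windows take the 200 bases before the outermost start, which is not the canonical start in every gene. Members and lists were chosen with earlier results of these data known. Mouse values are given for members called in both sexes, the 2 nearest Gdf15 on each side and the outermost on each side. The 5 higher and 5 lower members with the smallest p are named for females against males, 3 for the interaction, and the partner with the smallest p in each sex. Crtc1, Pbx4, Slc25a42, Comp, Use1 and the members called in 1 sex were added after their values were seen.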

Additional observations from a re-analysis of the deposited data

Results flagged for a closer look

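In each group of 6 mice the highest and lowest value of the named members was checked for a wide gap to the next mouse (Dixon's test at the 95% level). Among 100 groups of values checked, 7 held such a mouse, where chance marks about 1 in 20 groups. The 7 values lay in 5 mice.

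In female Gdf15-KO replicate 18, Slc18a1 stood at 0.67 CPM (next highest knockout mouse 0.323), Lpar2 at 6.26 CPM (next 3.5) and Borcs8 at 24.5 CPM (next 14.8). All 3 genes lie before Gdf15, and these values are toward the WT level. Female WT replicate 3 had 33.2 CPM of Borcs8, below the next mouse at 36.6 CPM. Female WT replicate 4 had 166 CPM of Colgalt1, above the next at 128 CPM. Male WT replicate 4 had 39.1 CPM of Crtc1, above the next at 29.2 CPM. Male Gdf15-KO replicate 16 had 28.5 CPM of Ddx49, below the next at 30.3 CPM.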

How the results depend on the processing

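The count of members called between Gdf15-KO and WT was 16 in females and 17 in males. It ran from 14 to 16 and from 13 to 18 when 1 mouse was left out, and was 11 and 13 with edgeR on that sex alone, 20 and 22 with DESeq2 on all groups and 20 and 21 with DESeq2 on that sex alone. Among the 21 members whose exons overlap no other annotated gene, 8 were called in females, 8 in males and 10 between the sexes. These are 38.1%, 38.1% and 47.6% of the 21, where 21.1%, 23.7% and 42.1% of the 38 members with overlap were called. The higher calls of Armc6 and Ocel1 are not among the 21. Between the sexes, leaving out 1 mouse gave 23 to 28 calls against 26, and for the interaction 0 in every fit. With the replicate number shared by females and males as a replicate block, 25 members were called between the sexes. Same-numbered mice had correlations from -0.56 to 0.396, 9 of 12 over 0.1, and 4 of 12 females matched their own number best, so the numbers were not taken as pairs. Gdf15-KO and WT mice share no number. No named value changed its sign. Of 1152 named values with 1 mouse left out, 64 changed side of the threshold, chiefly Lpar2 in females and Ccdc124, Ints10, Lsm4, Colgalt1 and Ssbp4 in males, as did 14 of 368 under the other alternatives. The cause was not tested. Low counts limit Slc18a1, Pbx4 and Mef2b most.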
